A study of Mus musculus with 12 samples.

Results

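The period, cryptochrome and Ciart genes encode the negative arm of the circadian clock. They were described here in 12 RNA sequencing libraries of primary mouse myotubes, muscle fibres in culture with many nuclei, made by fusing myoblasts. The members were chosen by name: Per1, Per2, Per3, Cry1, Cry2 and Ciart. All 6 were found among the 20201 genes of the table, and all 6 passed the filter of a mean of 10 normalized counts over the libraries. The myoblasts came from Bmal1-floxed mice, in which part of the gene for the clock activator BMAL1 is flanked by Cre recombination sites. Every culture thus carried the floxed allele and received an adenovirus for 48 hours, with Cre in the libraries labelled Bmal1 knockout and an empty vector in those labelled wildtype. Cultures were kept in 21% or 1% oxygen for 6 hours.

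The labels give 6 libraries as wildtype with 21% oxygen and 6 as Bmal1 knockout with 1% oxygen. By the numbers in their titles the libraries fall into 4 blocks of 3, namely 1 to 3 and 7 to 9 labelled wildtype, and 4 to 6 and 10 to 12 labelled knockout. The labels do not say what sets libraries 1 to 6 apart from 7 to 12, and they name no animal or culture. The p-values therefore rest on the spread among libraries, and that spread may be technical. Genotype, virus and oxygen go together in the labels, so their parts in a difference cannot be told apart.

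In the cell, BMAL1 and CLOCK bind E-box sequences as a pair and activate the Per, Cry and Ciart genes. PER and CRY proteins then gather, enter the nucleus and block the same pair, which closes the loop that gives the daily rhythm. Ciart encodes CHRONO, a further repressor that binds BMAL1. Skeletal muscle has its own clock of this kind, and its PER and CRY genes also answer to hormones and to other signals from outside the cell.

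Cry1 rose and Per3 fell in the libraries labelled knockout, in libraries 1 to 6 and again in 7 to 12. Cry2 differed little by label and was about 3-fold higher in libraries 7 to 12 than in 1 to 6, and Ciart was likewise high in 7 to 12. Per2 rose with the knockout label, while Per1, like Ciart, lay higher in libraries 7 to 12 than in 1 to 6. In the main test described below, the rises of Per1 and Ciart passed in the wildtype label only.

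The promoter windows of the members show where the clock's DNA motifs lie beside genes with these different patterns. RefSeq windows (GRCm38.p6, the mm10 assembly) from 250 bases before to 50 bases after the annotated start were at hand for 5 of the 6 members. They are printed 5′ to 3′ on the gene's strand, with 5 windows for Ciart (chr3:95882179-95882478, minus strand), Cry1 (chr10:85185005-85185304, minus strand), Cry2 (chr2:92434020-92434319, minus strand), Per3 (chr4:151044616-151044915, minus strand) and the upstream start of Per1 (chr11:69098699-69098998, plus strand). Capitals mark the E-box CACGTG, its variant CACGTT and the D-box TTATGTAA, each on either strand.
Ciart: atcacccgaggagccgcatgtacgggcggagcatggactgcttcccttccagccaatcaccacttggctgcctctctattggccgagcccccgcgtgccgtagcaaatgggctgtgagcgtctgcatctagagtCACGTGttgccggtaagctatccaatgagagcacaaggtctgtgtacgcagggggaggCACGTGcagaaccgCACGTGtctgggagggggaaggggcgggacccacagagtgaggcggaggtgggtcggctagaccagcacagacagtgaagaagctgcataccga
Cry1: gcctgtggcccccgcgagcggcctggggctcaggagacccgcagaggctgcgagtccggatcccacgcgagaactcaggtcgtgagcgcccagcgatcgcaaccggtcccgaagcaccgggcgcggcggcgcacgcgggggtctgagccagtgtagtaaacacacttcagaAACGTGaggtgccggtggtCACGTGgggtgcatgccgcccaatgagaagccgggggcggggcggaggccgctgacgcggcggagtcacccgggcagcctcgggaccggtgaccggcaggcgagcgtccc
Cry2: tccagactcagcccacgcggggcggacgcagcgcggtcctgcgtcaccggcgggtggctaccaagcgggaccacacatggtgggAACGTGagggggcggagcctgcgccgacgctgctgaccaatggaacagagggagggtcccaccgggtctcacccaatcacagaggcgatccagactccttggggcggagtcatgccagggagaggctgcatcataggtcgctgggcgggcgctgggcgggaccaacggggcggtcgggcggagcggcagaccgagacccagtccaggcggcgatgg
Per3: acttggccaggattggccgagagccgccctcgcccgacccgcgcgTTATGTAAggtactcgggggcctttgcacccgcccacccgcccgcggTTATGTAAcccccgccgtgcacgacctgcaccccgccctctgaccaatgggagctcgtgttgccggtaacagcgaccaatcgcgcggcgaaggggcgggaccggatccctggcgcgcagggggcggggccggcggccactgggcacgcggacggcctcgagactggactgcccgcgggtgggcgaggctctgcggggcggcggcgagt
Per1: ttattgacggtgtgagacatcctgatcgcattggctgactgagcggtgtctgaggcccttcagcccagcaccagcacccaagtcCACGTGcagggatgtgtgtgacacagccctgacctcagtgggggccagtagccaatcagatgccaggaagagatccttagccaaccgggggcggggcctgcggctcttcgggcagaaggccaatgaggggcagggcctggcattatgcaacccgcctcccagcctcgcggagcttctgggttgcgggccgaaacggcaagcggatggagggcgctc

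Ciart had 3 E-boxes, beginning 116, 58 and 44 bases before the start. Cry1 had 1 E-box and 1 variant, and the upstream window of Per1 had 1 E-box. The Cry2 window held 1 variant and no CACGTG, and the Per3 window held neither but had 2 D-boxes. Among all 32851 windows, 7.15% held CACGTG, 4.68% CACGTT and 0.938% TTATGTAA. The D-box TTACGTAA (0.119% of windows) and the cAMP response element TGACGTCA (1.79%) were in none of the 6 member windows, which include a second start of Per1. ACGTG, a form of the core of the hypoxia response element, was in 19.6% of windows, and the form GCGTG was not searched for. ACGTG was found on 1 or the other strand in Ciart, Cry1, Cry2 and Per1, in each case inside an E-box or its variant. These matches describe letters in these windows and say nothing of binding.

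**Figure D1:**
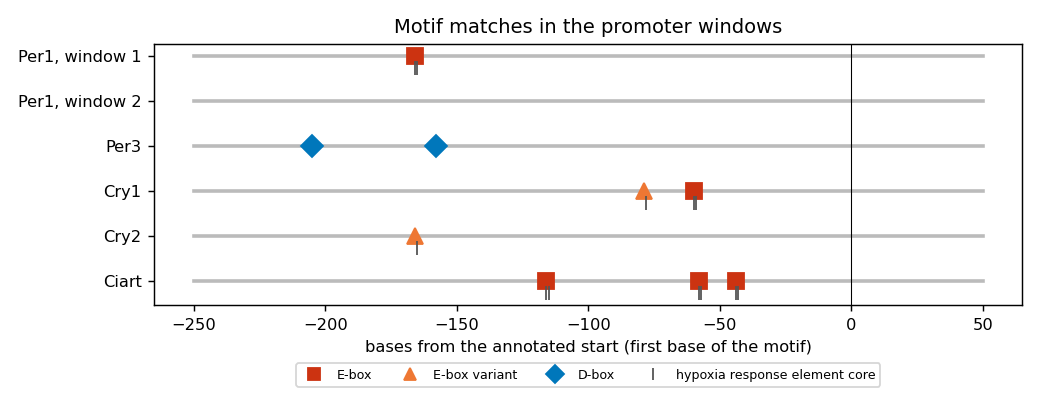
Positions of motif matches in the promoter windows, in bases from the annotated start (x axis), for the 6 windows of 5 members (rows). Squares are CACGTG, triangles CACGTT, diamonds TTATGTAA, and ticks the core form ACGTG, which overlaps the squares and triangles. Ciart has 3 squares and Per3 has 2 diamonds.

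The targeted gene was checked first. Arntl, the gene of BMAL1, stood at 133, 156 and 138 normalized counts in libraries 1 to 3 and at 179, 178 and 155 in libraries 7 to 9. In the libraries labelled knockout it stood at 45.3, 42.3 and 41.7 in 4 to 6 and at 42.9, 47.3 and 48.6 in 10 to 12. All 6 knockout-labelled values lay below all 6 others, so Arntl followed the genotype label in every library (log2 fold change -1.78, limma adjusted p = 7.63e-08). Genes induced by low oxygen did not follow the oxygen label. Egln3, which encodes an oxygen-sensing prolyl hydroxylase, stood at 241 to 270 in libraries 1 to 3 and 194 to 262 in 4 to 6, but at 2199 to 2258 in 7 to 9 and 2036 to 2143 in 10 to 12. All 8 oxygen-check genes were higher in 7 to 9 than in 1 to 3 and in 10 to 12 than in 4 to 6 by limma, with median log2 differences of 2.11 and 2.02. The part of this shift in any result below was not tested, and no difference is ascribed to oxygen.

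Depth and cell makeup bear on the values as follows. The libraries held 6376584 to 12463339 reads, and 8 genes that each took 1% or more of a library made up 49.2% to 65.4% of them. Library 2, labelled wildtype, stood apart: 29.6% of genes were at 0 there, against 13.0% to 21.9% elsewhere, and 39 genes were at 0 in it while at 10 or more in the other 11. Of the 8 myotube markers 4 were higher with the knockout label (Ckm, Acta1, Tnnt3 and Mymk), 2 were lower (Myog, from 212 to 146 normalized counts, and Ttn, from 4228 to 3303) and Myh3 and Myh8 did not pass with limma. Their sum, to whose difference Acta1 added the most (from 4253 to 9393), was 13624 to 17186 with the wildtype label and 21145 to 23949 with the knockout label. The 2 myoblast markers, Pax7 and Myf5, summed to 66.6 to 109 and 12.4 to 39.1. Markers of other cells were present too: the 5 fibroblast markers, mostly Col1a1, summed to 63452 to 67979 in libraries 10 to 12 and to 40963 to 57320 in the others. By label Thy1 was higher, Dcn and Lum lower, and Pdgfra and Col1a1 did not pass with limma. The 4 endothelial markers summed to 864 to 1000 with the wildtype label and 1216 to 1473 with the knockout label. The 4 macrophage markers summed to at most 51.5, with Ptprc at 0 in 5 libraries, the 3 Schwann cell markers to at most 29.3, and the 2 measured of 3 adipocyte markers to at most 1.76. The part of these cells in the results was not tested, and in such bulk samples fewer cells of a type and less RNA per cell cannot be told apart.

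Differences were tested with limma on log2(normalized count + 1), with 1 mean per block, over 12553 genes. A gene was called at a Benjamini-Hochberg adjusted p under 0.05. Fold changes are on that scale, where the pseudocount shrinks those of genes of low level, while the 0 of Ciart in 1 library enlarges its own. The comparisons within libraries 1 to 6, within 7 to 12 and between these sets share libraries with one another, so their values are given side by side.

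Of the 6 members, 2 rose and 1 fell in the libraries labelled knockout, averaged over both title sets, and 3 did not pass. Of all tested genes 30.7% were called in that comparison, 16.2% higher and 14.5% lower. The median log2 difference was 0.43 over the members and -0.0015 over all genes, but 0.065 over the members without library 2, where Ciart is at 0. Within libraries 1 to 6, Cry1 rose and Per3 fell (18.8% of all genes called, 10.8% higher and 7.97% lower), and within 7 to 12 the same genes were called in the same directions (16.5%, 8.84% higher and 7.64% lower). Between title sets, Per1, Cry2 and Ciart rose from libraries 1 to 3 to 7 to 9 (16.8% of all genes called, 9.79% higher), and Cry2 rose from 4 to 6 to 10 to 12 (19%, 11.2% higher). In the latter comparison the other 5 members did not pass with limma, though 4 of the 6 had an unadjusted p under 0.05. For the difference of the label effect between title sets limma called 0 of 6 members (0.00797% of all genes), with 0 at an unadjusted p under 0.05 and 0 by edgeR or DESeq2. The members' median log2 difference between sets was 0.97 with the wildtype label and 0.77 with the knockout label, against 0.0092 and -0.022 over all genes.

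**Figure D2:**
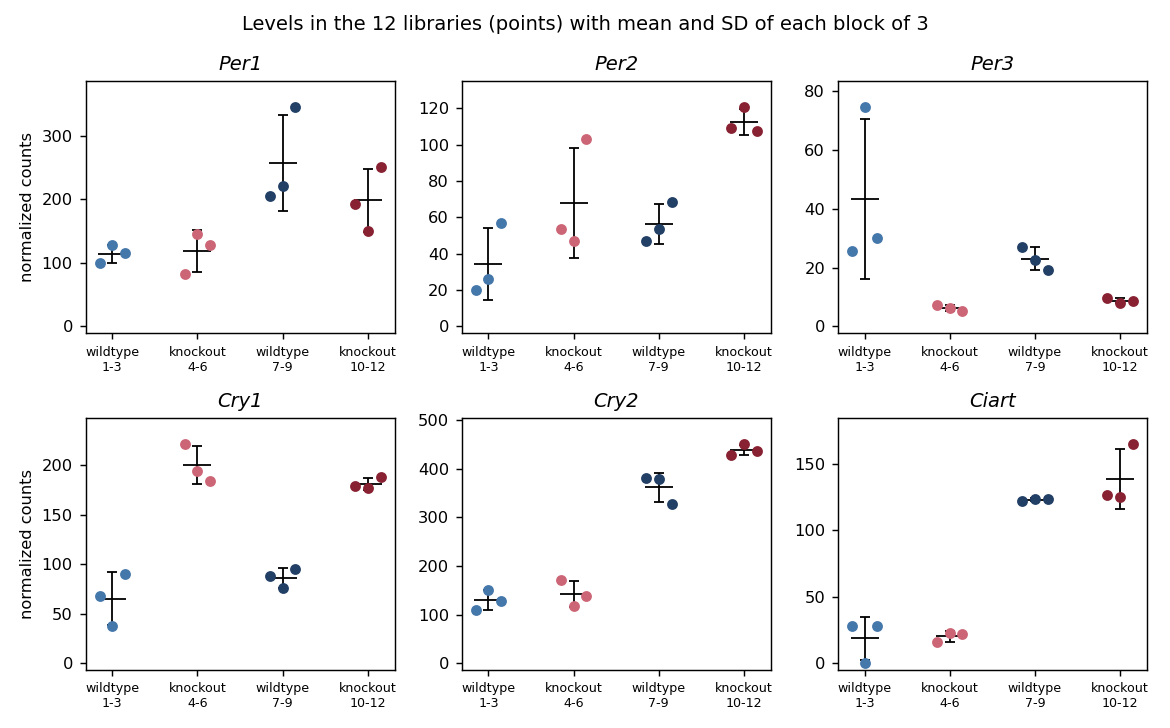
Normalized counts (y axes, each starting near 0) of the 6 members in each of the 12 libraries (points), by block of 3 title numbers, with mean and SD (bars). Cry1 is at 177 to 222 in the libraries labelled knockout and at 37.2 to 95.6 in the others, whereas Cry2 is at 328 to 451 in libraries 7 to 12 and at 110 to 171 in 1 to 6. The Ciart point at 0 is library 2.

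Per1 (ENSMUSG00000020893, chromosome 11, 69095217 to 69109960, plus strand, mm10) encodes a PER protein and is also known as an immediate response gene to cAMP and glucocorticoid signals. It stood at 100.4, 129 and 115 normalized counts in libraries 1 to 3 and at 82.4, 146 and 129 in libraries 4 to 6. It stood at 206, 221 and 345 in libraries 7 to 9 and at 193, 151 and 251 in 10 to 12. The 6 higher-numbered libraries thus lay above the 6 lower-numbered ones, with 151 as the lowest of the former and 146 as the highest of the latter. Between labels Per1 overlapped in both sets (log2 difference -0.17, 95% interval -0.55 to 0.21, limma adjusted p = 0.491). From libraries 1 to 3 to 7 to 9 it rose 2.19-fold (log2 1.13, SE 0.25, limma adjusted p = 0.00714), and this call held in all 25 alternative settings. From 4 to 6 to 10 to 12 the difference was 0.74 (SE 0.25, limma adjusted p = 0.0539) and passed in 7 of 25 settings, among them those without library 2, 5, 9 or 11 (adjusted p = 0.0358, 0.0439, 0.0395 and 0.0365).

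Per2 (ENSMUSG00000055866, chromosome 1, 91415982 to 91459324, minus strand) encodes a PER protein whose loss disturbs the daily rhythm of mice. It stood at 20.2, 26.3 and 57.0 normalized counts in libraries 1 to 3 and at 53.6, 47.3 and 103 in 4 to 6. It stood at 46.8, 53.8 and 68.5 in libraries 7 to 9 and at 109, 121 and 108 in 10 to 12. Libraries 10 to 12 were the highest block and lay above every other library, whereas 3 and 4 to 6 overlapped. Averaged over the sets Per2 rose 2.01-fold with the knockout label (log2 1.00, SE 0.25, limma adjusted p = 0.00866), a call that held in all 26 alternative settings. The log2 difference was 1.01 in libraries 1 to 6 and 1.00 in 7 to 12, which did not pass on their own (limma adjusted p = 0.0645 and 0.0730). Without library 3 both passed (log2 1.43 and 1.00, adjusted p = 0.00714 and 0.0252), and without library 2 the one in 7 to 12 passed (adjusted p = 0.0486). Libraries 2 and 3 bear on the comparison in 7 to 12 only through the estimate of spread that the blocks share. That comparison also passed with DESeq2 and with library weights (adjusted p = 0.0366 and 0.0395), and in 4 of 25 settings in all. Between title sets the differences were 0.81 and 0.80 (limma adjusted p = 0.140 and 0.139), and they passed without library 3 in the wildtype label (1.23, adjusted p = 0.0161) and without library 6 in the knockout label (1.14, adjusted p = 0.0480).

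Per3 (ENSMUSG00000028957, chromosome 4, 151003652 to 151044665, minus strand) encodes a further PER protein, whose loss affects the rhythm of mice little. It stood at 25.5, 74.3 and 29.9 normalized counts in libraries 1 to 3 and at 7.42, 6.22 and 5.32 in 4 to 6. It stood at 27.0, 22.6 and 19.3 in libraries 7 to 9 and at 9.75, 7.89 and 8.58 in 10 to 12. Every knockout-labelled library lay below every wildtype-labelled one, on 5 to 9 reads each, which was above the floor of 3 reads. Per3 fell 3.65-fold with the knockout label (log2 -1.87, SE 0.27, limma adjusted p = 0.000243), and by -1.63 without library 2, its highest (adjusted p = 7.17e-05). In libraries 1 to 6 the log2 difference was -2.44 (limma adjusted p = 0.00087) and in 7 to 12 it was -1.29 (limma adjusted p = 0.0381). The latter call was lost in 9 of 24 settings, which included leaving out any of libraries 7 to 12 (adjusted p from 0.0676 to 0.138). The difference of these differences did not pass (1.15, 95% interval -0.035 to 2.34, limma adjusted p = 0.585). Between title sets Per3 differed by -0.73 in the wildtype label, and by -0.27 without library 2, and by 0.42 in the knockout label, none past the threshold (limma adjusted p = 0.223, 0.641 and 0.514).

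Cry1 (ENSMUSG00000020038, chromosome 10, 85131700 to 85185064, minus strand) encodes a cryptochrome, a strong repressor of BMAL1 and CLOCK. It stood at 67.8, 37.2 and 90.6 normalized counts in libraries 1 to 3 and at 222, 194 and 185 in 4 to 6. It stood at 88.4, 75.7 and 95.6 in libraries 7 to 9 and at 179, 177 and 188 in 10 to 12. All 6 knockout-labelled libraries lay above all 6 others, and the lowest of them was well clear of the highest wildtype-labelled value. Cry1 and Per3 were the 2 of 6 members whose labels did not overlap, as in 12.4% of all tested genes. Cry1 rose 2.60-fold with the knockout label (log2 1.38, SE 0.17, limma adjusted p = 7.07e-05), by 1.69 in libraries 1 to 6 and 1.06 in 7 to 12 (limma adjusted p = 0.000422 and 0.00986). All 3 calls held in every alternative setting run (adjusted p up to 0.0437), and the difference between the sets did not pass (-0.62, 95% interval -1.37 to 0.12, limma adjusted p = 0.619). Between title sets Cry1 differed by 0.49 in the wildtype label and -0.14 in the knockout label (limma adjusted p = 0.196 and 0.760). The former passed without library 3 (0.77, adjusted p = 0.0294) and was 0.13 without library 2.

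Cry2 (ENSMUSG00000068742, chromosome 2, 92403646 to 92434043, minus strand) encodes the other cryptochrome. It stood at 110.1, 150.2 and 128.0 normalized counts in libraries 1 to 3 and at 171, 118 and 138 in 4 to 6. It stood at 380, 378 and 328 in libraries 7 to 9 and at 429, 451 and 436 in 10 to 12. Libraries 7 to 12 all lay above libraries 1 to 6. Within 7 to 12 the knockout-labelled libraries lay above the others, as in 21% of all tested genes. The difference there did not pass (log2 0.28, limma adjusted p = 0.213). From 1 to 3 to 7 to 9 Cry2 rose 2.80-fold (log2 1.48, SE 0.14, limma adjusted p = 1.04e-05) and from 4 to 6 to 10 to 12 it rose 3.10-fold (log2 1.63, SE 0.14, limma adjusted p = 3.78e-06). Both calls held in all 25 alternative settings. By label the log2 difference was 0.21 (95% interval -0.011 to 0.42, limma adjusted p = 0.141), and it passed in 3 of 26 settings, among them the one without library 2 (0.26, adjusted p = 0.0410). Cry2 shares 295 exon bases with D930015M05Rik on the opposite strand, which has no row of its own in the table. The sources do not state whether counting used strand, so reads of the pair may not be told apart.

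Ciart (ENSMUSG00000038550, chromosome 3, 95878503 to 95882251, minus strand) stood at 28.2, 0 and 28 normalized counts in libraries 1 to 3 and at 15.7, 22.4 and 22.2 in 4 to 6. It stood at 122, 124 and 123 in libraries 7 to 9 and at 127, 125 and 165 in 10 to 12. Every library from 7 to 12 thus lay above every one from 1 to 6. Ciart, Cry2 and Per1 were the 3 members higher in 7 to 12 with no overlap, as in 7.79% of all tested genes. Ciart was 1 of the 39 genes at 0 in library 2 alone, where 3 reads correspond to 4.65 normalized counts, and that value widened its error in every comparison. From 1 to 3 to 7 to 9 the log2 difference was 3.71 (SE 0.93, limma adjusted p = 0.0159), and without library 2 it was 2.09, or 4.26-fold (SE 0.19, adjusted p = 6.06e-06). From 4 to 6 to 10 to 12 it was 2.74, or 6.66-fold (SE 0.93, limma adjusted p = 0.0598), and without library 2 the same difference had an SE of 0.17 and passed (adjusted p = 1.01e-07). It also passed without library 1 or 3 (adjusted p = 0.0405 and 0.0409), and in 9 of 25 alternative settings in all. Among these were edgeR and DESeq2 on all 12 libraries (adjusted p = 0.000505 and 4.64e-11). By label Ciart did not pass (log2 difference 0.65, 95% interval -0.78 to 2.08, limma adjusted p = 0.495), and the sign turned without library 2 (-0.16, adjusted p = 0.365). The gene C920021L13Rik lies opposite to Ciart without sharing exon bases.

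**Figure D3:**
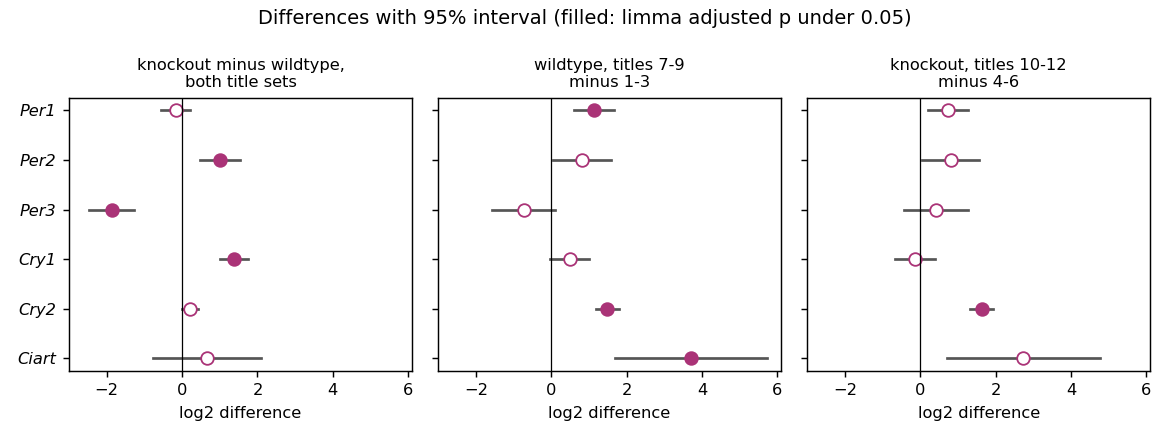
Log2 differences (x axis) of the 6 members with 95% intervals (lines) from the fit on all 12 libraries, for the knockout label against wildtype over both title sets, and for libraries 7 to 9 against 1 to 3 and 10 to 12 against 4 to 6. Filled points passed limma adjusted p under 0.05: Per2, Per3 and Cry1 on the left, Per1, Cry2 and Ciart in the middle, and Cry2 on the right. The wide intervals of Ciart include library 2, where it is at 0.

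Ratios of members within a library were taken on normalized count + 1, as in the fit. With no pseudocount, where a ratio does not depend on the scaling of its library, values moved by at most 0.029 for Cry1 to Cry2, 0.055 for Per2 to Per1 and 0.234 for Per3 to Per2, whose counts are low. The log2 ratio of Cry1 to Cry2 was -0.69, -1.99 and -0.49 in libraries 1 to 3, and 0.38, 0.71 and 0.41 in 4 to 6. It was -2.09, -2.31 and -1.77 in libraries 7 to 9, and -1.25, -1.34 and -1.21 in 10 to 12. Cry1 counts exceeded Cry2 counts in libraries 4 to 6 and in no other block. The knockout-labelled libraries had the higher ratio in each set, by 1.56 in libraries 1 to 6 and 0.79 in 7 to 12. The mean difference of 1.17 gave an exact permutation p = 0.005 over 400 relabellings within sets, two-sided, which is the smallest possible p there, and an adjusted p = 0.0075 over 3 ratios. Both labels were lower in the higher-numbered set, by -0.998 and -1.77, so the ratio moved with label and set in opposite directions.

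The ratio of Per2 to Per1 ranged from -2.31 to -0.999 with the wildtype label and from -1.60 to -0.319 with the knockout label. It was higher in the latter by 1.18 on average (0.99 in libraries 1 to 6 and 1.37 in 7 to 12, exact permutation p = 0.01, adjusted p = 0.01), with an overlap at library 3. The ratio of Per3 to Per2 ranged from -1.78 to 1.46 with the wildtype label and from -4.04 to -2.70 with the knockout label. The labels did not overlap, and the mean difference was -2.87 (-3.45 and -2.29 in the sets, exact permutation p = 0.005, adjusted p = 0.0075). With no pseudocount the ranges were -1.83 to 1.5 and -4.27 to -2.85, and the mean difference was -3.03 at the same exact permutation p. The 3 Per transcripts therefore stood in different proportions under the 2 labels.

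**Figure D4:**
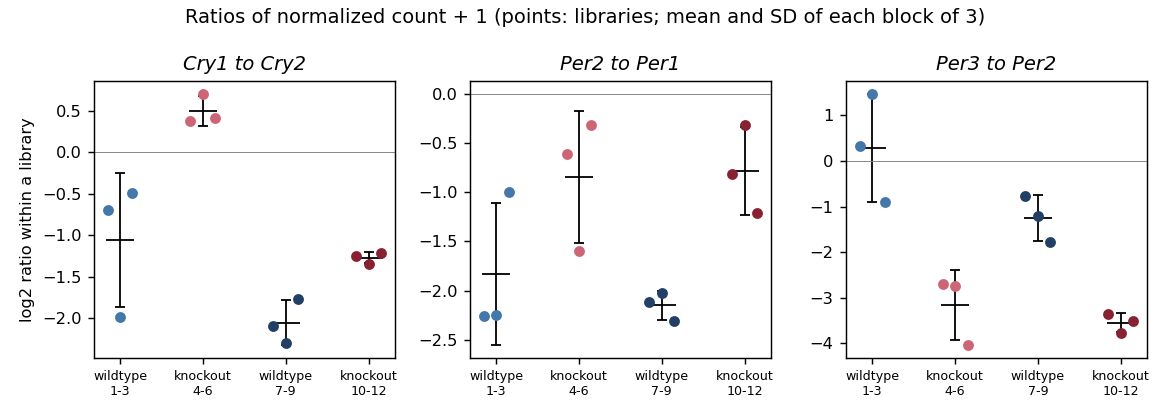
Log2 ratios of normalized count + 1 within each library (points, y axes) for Cry1 to Cry2, Per2 to Per1 and Per3 to Per2, by block of 3 libraries with mean and SD. Libraries 4 to 6 alone have Cry1 to Cry2 above 0 (0.38 to 0.71), and Per3 to Per2 is below -2.6 in all libraries labelled knockout.

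Levels of different genes were compared per kilobase of annotated exon, the union over transcripts. In libraries 1 to 3 the means were 20.5 ± 3.18 for Cry2, 20.4 ± 2.5 for Per1 and 19.5 ± 8.03 for Cry1 (normalized counts per kilobase, SD, n = 3), which lay within their spread. Per2 followed at 5.90 ± 3.36 and Per3 at 4.50 ± 2.81, and Ciart ranged from 0 to 12.5. In libraries 10 to 12 the order was Cry2 at 69.4 ± 1.75, Ciart at 61.4 ± 9.99, Cry1 at 54.3 ± 1.72, Per1 at 35.2 ± 8.90, Per2 at 19.2 ± 1.20 and Per3 at 0.91 ± 0.098. Ciart overlapped with both neighbours there, at 55.3 to 73.0 against 53.0 to 56.2 for Cry1 and 67.9 to 71.3 for Cry2. Per3 was the lowest member per length in libraries 4 to 12.

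The other clock genes were taken from lists of known roles. Of 4 activators, Npas2, a partner of BMAL1 in place of CLOCK, rose from 34.0 to 95.7 normalized counts with the knockout label (log2 1.51, limma adjusted p = 2.08e-05) and Arntl fell. Clock and Arntl2 did not pass by label (0.031 and -0.40, limma adjusted p = 0.731 and 0.243). Among the nuclear receptors of the clock, 3 were tested. Nr1d1 and Nr1d2, the REV-ERB receptors known to repress Arntl, Npas2 and Cry1, fell by -3.42 and -3.48 (limma adjusted p = 2.21e-06 and 1.21e-08), and Rora, an opposing activator, did not pass (0.071, adjusted p = 0.488). Rora instead rose between title sets, by 1.28 in the wildtype label and 1.35 in the knockout label (limma adjusted p = 1.83e-06 and 9.41e-07). Clock fell from libraries 4 to 6 to 10 to 12 (-0.40, limma adjusted p = 0.00469) and was at -0.13 in the wildtype label (adjusted p = 0.335).

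Of 6 clock outputs 5 were tested, without Hlf, which was under the minimum. Dbp, a PAR bZIP activator at D-boxes, fell with the knockout label by -1.31, and Nfil3, its competitor there, by -0.38 (limma adjusted p = 0.000837 and 0.00218). Tef, Bhlhe40 and Bhlhe41 did not pass (0.11, -0.16 and -0.35, adjusted p = 0.350, 0.144 and 0.128). Between title sets Nfil3 and the E-box repressors Bhlhe40 and Bhlhe41 rose in both labels: Bhlhe40 went from 354 to 1343 normalized counts in the wildtype label and from 325 to 1180 in the knockout label. Their log2 differences were 1.31 and 1.11, 1.93 and 1.86, and 1.48 and 1.88 in that order, all past the limma threshold. These genes thus lay with Cry2 and Ciart on the contrast between sets, and Dbp and the REV-ERB genes lay with Per3 on the label contrast.

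**Figure D5:**
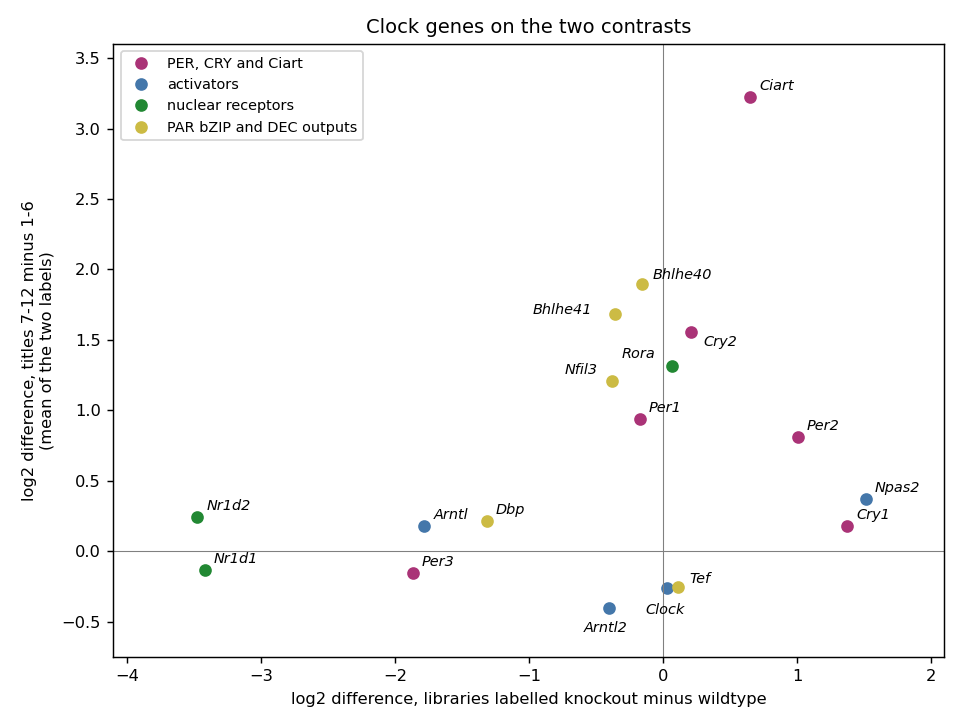
Log2 difference between labels (x axis, knockout minus wildtype) against the mean log2 difference between libraries 7 to 12 and 1 to 6 (y axis) for the 6 members and 12 other tested clock genes, coloured by role. Cry1 (1.38, 0.17) and Per3 (-1.87, -0.16) lie along the label axis, Cry2 (0.21, 1.56) and Ciart (0.65, 3.22, with library 2 at 0) along the set axis, and Per2 (1.00, 0.81) on both.

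Genes that act on PER and CRY proteins came from a list of 15. Of these 15 kinases, ubiquitin ligase parts and deubiquitinases, 14 were tested, of which 2 rose and 5 fell with the knockout label, where 16.2% of all genes rose and 14.5% fell (median log2 difference -0.16). Prkaa2, a catalytic subunit of AMPK, the kinase that marks CRY1 for breakdown, fell from 207 to 70.9 normalized counts (log2 -1.54, limma adjusted p = 9.32e-08), and Dyrk1a, a kinase of CRY2, fell by -0.48 (adjusted p = 0.00639). Csnk2b, a subunit of casein kinase 2, and Usp7, a deubiquitinase of CRY proteins, rose by 0.48 and 0.24 (limma adjusted p = 0.00167 and 0.0351). Between title sets 2 of 14 rose in the wildtype label and 3 in the knockout label, against 9.79% and 11.2% of all genes, and with limma 0 fell (unadjusted p under 0.05 in 2 and 5 genes in either direction, and edgeR and DESeq2 called 2 and 3). Of 6 partners of the PER and CRY complex, 2 were called by label, against 30.7% of all genes. Nono rose by 0.18 and the corepressor Sin3a fell by -0.48 with the knockout label (limma adjusted p = 0.00866 and 0.0360). In libraries 1 to 6 the labels overlapped for Sin3a, with 210 normalized counts in library 1 and 218 in library 5. Its highest value was 508, in library 2. For the partners limma called 0 genes between title sets in either label, with 2 at an unadjusted p under 0.05 in each and 0 by edgeR or DESeq2.

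Of 13 genes of the cAMP, glucocorticoid and growth signals that reach Per1 and Per2, 1 rose and 5 fell with the knockout label, against 16.2% and 14.5% of all genes. Egr1, an immediate early gene, rose by 0.75, and Fkbp5, a glucocorticoid target, and Creb1, the cAMP response factor, fell by -0.49 and -0.36 (limma adjusted p = 0.000882, 0.0327 and 0.00787). The mean of Fkbp5 went from 182 to 95.2 normalized counts in libraries 1 to 6. In libraries 7 to 12 it went from 139 to 130, and the labels overlapped there. Between title sets 4 of the 13 rose in each label, against 9.79% and 11.2% of all genes. Among them, named after their values were seen, were Fos, an immediate early gene, from 22.2 to 92.5 normalized counts in the wildtype label and from 25.2 to 97.0 in the knockout label. Sik1, a cAMP-induced kinase, rose by 1.32 and 1.45, and Nr3c1, the glucocorticoid receptor, by 0.71 and 0.68 on the log2 scale, past the limma threshold in both labels.

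The protein-coding genes with the most similar pattern over the 12 libraries were sought by the root mean square difference of log2 values centred on each gene's own mean, for 8978 genes whose mean reached 50. For Cry2 these were Angptl4, Hk1 and B4galnt1, at 0.14, 0.15 and 0.15, against a spread of 0.80 for Cry2 itself. For Cry1 they were 1110008P14Rik, Cox7b and Tmsb10, at 0.18, 0.21 and 0.23, against its own 0.76. For Per3 they were Jph1, Osgin2 and Itga4, at 0.36 to 0.38 against 1.04, and for Per1 Ifi211, Rasl12 and Tmem63a, at 0.27 to 0.28 against 0.57. For Per2 they were mt-Nd6, Glis3 and Cmip, from 0.38 against 0.76. For Ciart they were Nrn1, Fmo2 and Amz1, from 0.77 against 2.02, and these values include its 0 in library 2.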

How the data were processed

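The deposited table holds 1 column for each of the 12 libraries, holding normalized counts, a signal. The submitters' processing notes name Trimmomatic 0.33, STAR 2.5.2, RSEM 1.3.3, DESeq2 and the build mm10. The gene annotation was not stated there. Libraries were stranded total RNA, per the labels' protocols. The lowest positive signal in each deposited column was taken as 1 read. On that basis 100% of values were whole reads within 1e-06 reads, so depth is known (6376584 to 12463339 reads). Floors of 3 reads cover counting error alone.

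GENCODE M21, on the same assembly as mm10, gave names for 98.9% of 20201 identifiers. The test was limma 3.58.1 (R 4.3.3) with a trended prior on log2(value + 1), two-sided, with 4 block means and a minimum mean of 10. Ratios were tested with exact permutation within title sets. On the recovered reads edgeR 4.0.16 called 3933 and DESeq2 1.42.0 called 3919 genes for the label comparison, where limma called 3857. The limma fit alone was also run on simulated counts with known changes. These held no library with added zeros such as library 2, and no result here rests on that run. The closing section gives the alternatives. The libraries of a block all differed by more than sampling noise, with a chi-square per degree of freedom of 5.36 to 477 between pairs. The highest was between libraries 5 and 6, and the pairs with library 2 were at 20.2 and 21.7.

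Named genes were the 6 members, the clock activators, nuclear receptors and outputs, and in 3 further lists the 2 largest rises and falls called by label, besides Fos, Sik1 and Nr3c1, which were named after their values were seen. Members, blocks and lists were chosen with earlier results of these data known.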

Additional observations from a re-analysis of the deposited data

Results flagged for a closer look

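Per3 in library 2, labelled wildtype, stood at 74.3 normalized counts, against 19.3 to 29.9 in the other 5 libraries of that label. Its gap to the nearest library was 0.807 of the group's range, where 0.625 is the 95% critical value of Dixon's test for 6 samples. Library 2 also had the most genes at 0 and the lowest level of Cry1, 37.2 normalized counts. The log2 ratio of Per2 to Per1 in library 3, also labelled wildtype, was -0.999, against -2.31 to -2.02 in the other 5, a gap of 0.778 of the range. In all 18 groups of 6 values were examined in this way, for 6 members and 3 ratios under 2 labels. Chance flags about 1 in 20 groups whose values share 1 level. Each group here joins 2 blocks, so that rate does not hold where the title sets differ. The 0 of Ciart in library 2, in such a group, was not flagged.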

How the results depend on the processing

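Each comparison had 25 or 26 alternatives (24 or 25 for Per3, which a minimum mean of 50 removes). Across them Per2, Per3 and Cry1 by label, Cry1 within each title set, and Cry2 between title sets kept their direction and their calls. So did Per3 in libraries 1 to 6, and Per1 and Ciart from libraries 1 to 3 to 7 to 9. For that rise of Ciart the limma adjusted p reached 0.0497 leaving out 1 library. Of the values for single members, 834 stayed on the same side of the threshold in the same direction, 27 came to pass it, 9 no longer passed it and 30 turned their sign. The cause of each change was not tested. Scaling to totals without the most abundant genes moved the median of all genes by label to -0.17 on the log2 scale. Depth limits Per3, at 5 to 9 reads in each library labelled knockout. Ciart had 0 reads in library 2, the shallowest by total reads at 6376584. In library 10, with 6671694 reads in total, Ciart had 65 reads, and the cause of the 0 was not tested. Ratios without a pseudocount and the members' median without library 2 were added after seeing the data. No paired analysis was possible because the titles number the libraries from 1 to 12, so no number is shared between groups.

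Genes called by label were 2416 with 2 label means in place of 4 block means. In libraries 7 to 12, 3242 genes were called with library weights, and 1190 to 3082 leaving out 1 library, with 1190 without library 7. Members called in libraries 1 to 6 were 1 with a minimum mean of 50. In 7 to 12 they were 1 with a pseudocount of 10, no filter, a minimum mean of 50 or quantile normalization, and 1 to 3 leaving out 1 library. Between title sets, leaving out 1 library gave 3 to 5 members in the wildtype label, with 5 without library 3, and 1 to 3 in the knockout label. In the latter 2 members were called with a pseudocount of 10, a minimum mean of 50, quantile normalization, edgeR, or without the 3 shallowest libraries, 2, 5 and 10 (an alternative chosen after seeing the data), and 3 with DESeq2 or library weights. Genes whose label difference differed between sets numbered 1 with limma, 0 with a pseudocount of 10, quantile normalization or edgeR, 31 with DESeq2, 3 with library weights or without the 3 libraries, and 1 to 4 leaving out 1 library (limma called 1070 at an unadjusted p under 0.05).

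Signs turned in differences that did not pass in either setting. Per1 in libraries 1 to 6 was -0.15 with totals without abundant genes, -0.060 without the 3 libraries, and -0.15 to 0.26 leaving out 1 library. Cry2 there was -0.037 with those totals and -0.0053 to 0.26 leaving out 1 library. The difference between sets for Per2 was 0.069 with a pseudocount of 10, 0.023 with edgeR, 0.028 with DESeq2 and -0.43 to 0.33 leaving out 1 library, and for Cry2 it was -0.075 without the 3 libraries. Ciart by label was -0.030 with library weights, -0.17 without the 3 libraries and -0.16 to 1.06 leaving out 1 library. In libraries 1 to 6 it was -0.053 with edgeR, -0.0090 with DESeq2, -0.26 with weights, -0.57 without the 3 libraries and -0.48 to 1.95 leaving out 1 library. Its difference between sets was 0.24, 0.19, 0.46 and 0.79 in that order, and -1.79 to 0.64 leaving out 1 library.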
